A study of Mus musculus with 6 samples.

Results

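Keratins are the intermediate filament proteins of epithelia. The 10 keratin genes described here, Krt5, Krt6a, Krt6b, Krt8, Krt10, Krt14, Krt17, Krt18, Krt42 and Krt76, were chosen by name from the 14005 genes of a deposited expression table, at a time when results of the same comparison were already known. The measured values behind that choice are their presence in a table whose lowest gene mean was 9.28 normalized counts, and their difference between the groups compared here. Their own differences and calls are therefore given as a description and support nothing. The table held 11 of the 53 protein-coding keratin genes of the GENCODE M21 annotation, and the 11th, Krt80, and the pseudogene Krt8-ps are given for comparison. The other 42 were not analysed here.

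RNA was measured in 6 libraries of primary mouse bone marrow-derived macrophages (macrophages grown in culture from marrow) after polyA selection. The 3 control libraries were wild-type C57BL/6J. The 3 others, labelled Txn1 KO and called KO-labelled here, joined the allele Txn1tm1.1Ees/J of Txn1 (thioredoxin-1, a cytosolic disulfide reductase) to the line B6.129P2-Lyz2tm1(cre)lfo/J, in which Cre recombinase is inserted into the myeloid gene Lyz2. No treatment is named, both groups were pooled from males and females, and the KO-labelled libraries carry Cre while the controls do not. Age is not given, and nothing states that same-group libraries had separate animals or cultures behind them, so the errors measure the spread between these libraries, which may be technical.

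Libraries held 22508616 to 38726953 reads in the listed genes. Values are the authors' normalized counts, that is, reads divided by 1 size factor per library, and 1 read was worth 0.777 to 1.35 of them. A floor of 3 reads, below which a level is not told from 0, came to 2.33 to 4.04 normalized counts and covers counting error only. Of 12 macrophage markers all were listed, among them Csf1r and Adgre1. Lyz2 was at 361315 to 368284 normalized counts in wild type and 1775 to 4327 in the KO-labelled libraries. Txn1 itself overlapped between the groups (12155 to 13176 against 11963 to 12695) and was not called, and a total over the whole gene does not show which exons were read. Wild-type replicate 1 and Txn1 KO library 3 stood apart, since they held transcripts of hepatocyte genes such as Alb. The differences of the keratins described are given with and without them, except for Krt18, which was not tested without both.

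Keratins fall into an acidic type I and a basic type II, and a filament is built from pairs with 1 chain of each type. Basal cells of stratified epithelium such as epidermis make KRT5 with KRT14, and cells that have left the basal layer make KRT10 with KRT1. Stressed or wounded epidermis and skin appendages make KRT6A and KRT6B with KRT16 or KRT17. Simple epithelia such as that of liver make KRT8 with KRT18. Macrophages rely on another intermediate filament protein, vimentin, and are not known for keratin filaments.

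The type I genes Krt10, Krt14, Krt17 and Krt42 lie within 885 kb of chromosome 11, and the type II genes Krt5, Krt6a, Krt6b, Krt8 and Krt76 within 328 kb of chromosome 15 (GRCm38, GENCODE M21). Krt18 is the type I gene that lies outside its cluster, beside Krt8. Genes of 1 cluster are near-copies in places, which matters for reading their counts apart. The stretches below are 60 coding bases in which Krt17 and Krt42 are close to Krt14. They were picked, in steps of 3 bases along Krt14, for the fewest summed differences of Krt17 and Krt42 from Krt14. They are shown because reads of 3 keratins that were higher in the KO-labelled libraries differ here by so few letters. They are read 5′ to 3′ on the coding strand, capitals mark bases that differ from Krt14, and each lies in 1 exon on the minus strand of chromosome 11. Those of Krt17 and Krt42 differed from Krt14 at 1 and 2 of 60 bases.
Krt14, chr11:100205026-100205085: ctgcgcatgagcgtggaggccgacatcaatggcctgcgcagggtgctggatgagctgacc
Krt17, chr11:100259251-100259310: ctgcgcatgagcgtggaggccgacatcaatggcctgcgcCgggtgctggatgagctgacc
Krt42, chr11:100267013-100267072: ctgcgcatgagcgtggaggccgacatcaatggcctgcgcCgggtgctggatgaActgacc

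Over whole transcripts the likeness was uneven. Every run of 50 bases in the annotated transcripts of each keratin was looked up in the transcripts of all other genes. Krt6a and Krt6b shared most, with 45.7% and 50.1% of their runs found elsewhere, and their longest identical coding run was 280 bases. Their separate counts are uncertain for that reason, and their sum is given too. Krt8 shared 26.9% of its runs, all with Krt8-ps. Krt14 shared 13.9%, of which most lay in Krt16, a gene not analysed here, and Krt5 shared 8.52%, mainly with Krt6a. By contrast the shares were 3.99% for Krt17, 0.720% for Krt18, 0.265% for Krt76, 0.234% for Krt42 and 0 for Krt10. Only exact runs count here, so a stretch with 1 differing base, like those printed above, can count as unshared. The longest identical coding run was 49 bases for Krt14 and Krt42 and 43 for Krt5 and Krt76, under the 50 looked up. Low shares therefore do not show that reads of these genes can be told apart. The sources do not give how the authors assigned reads with more than 1 match, or whether they counted by strand. Unlisted genes on the opposite strand overlap Krt5, Krt6a, Krt6b, Krt8, Krt10 and Krt76, and none overlaps Krt14, Krt17, Krt18 or Krt42.

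**Figure D1:**
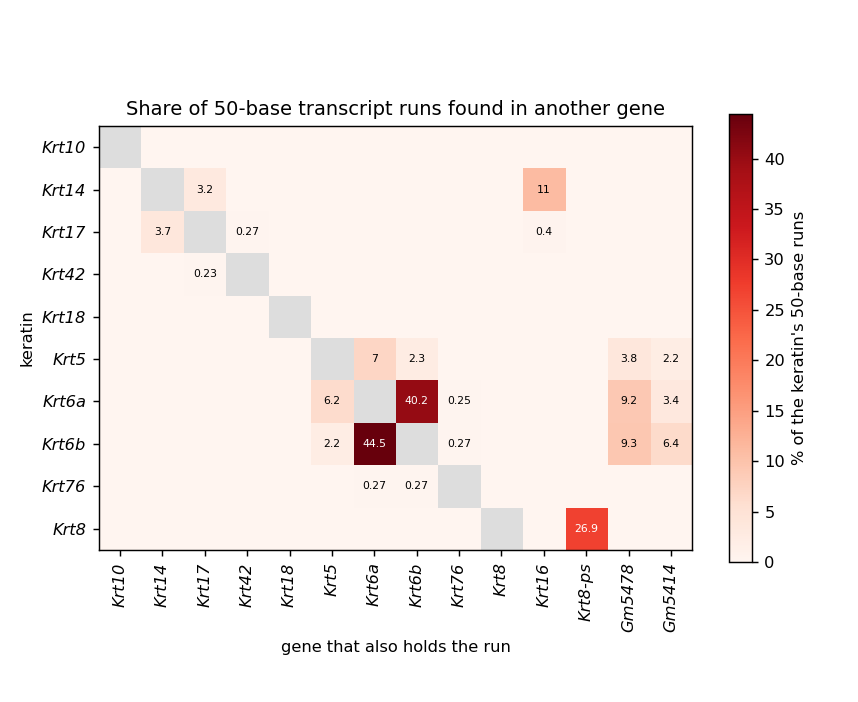
Percent of the 50-base runs in each keratin's annotated transcripts (rows) that also occur in transcripts of another gene (columns). Grey marks the gene itself, and 2 pseudogenes that share runs with Krt18 are not drawn. Krt6a and Krt6b share the most, 40.2% and 44.5% of their runs with each other, while Krt10, Krt42 and Krt76 share less than 1% with any gene drawn.

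Of the 10 keratins, 8 were called higher in the KO-labelled libraries, 0 were called lower and 2 were not called. Calls are from limma on log2(normalized count + 1) at a Benjamini-Hochberg adjusted p under 0.05 over 13977 genes. Over all these genes 11.5% were called higher, 9.97% lower and 21.5% either way. The median log2 difference of the 10 was 1.51, against -0.0049 over all genes tested. The 8 called genes were 2.44 to 3.09 times as high, as ratios of mean normalized counts. Among them Krt18 had a wild-type mean of 6.43 normalized counts. It reached the mean of 10 asked of tested genes only through the KO-labelled libraries. In 8 keratins every library labelled Txn1 KO lay above every wild-type library, which held for 18.5% of all genes tested. Since the members were chosen with this comparison in view, nothing follows from these counts about keratins as a class. In bulk RNA, more cells that carry a transcript and more of it per cell cannot be told apart.

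**Figure D2:**
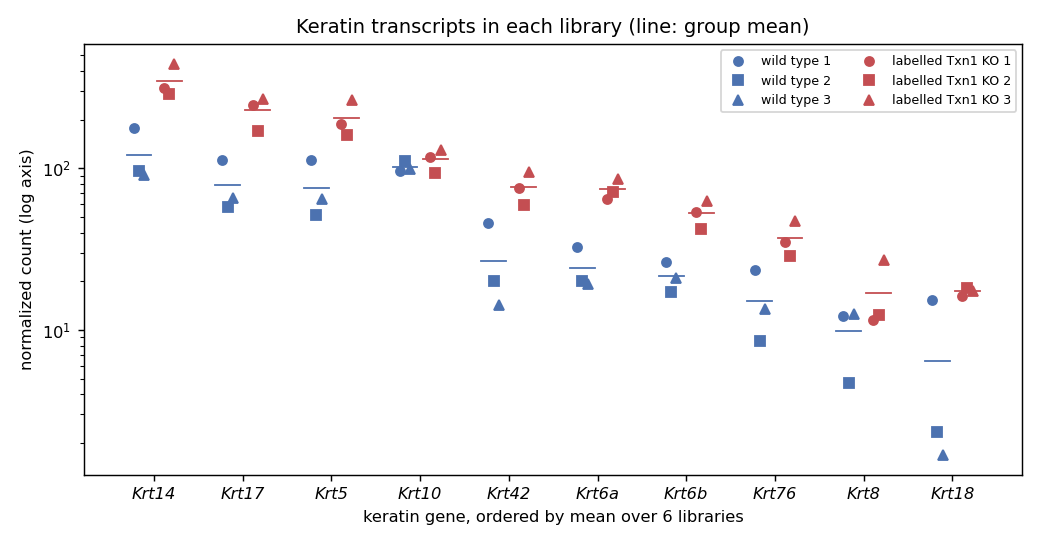
Normalized count (log axis) of each of the 10 keratins in 3 wild-type (blue) and 3 KO-labelled libraries (red), where marker shapes give the replicate number and short lines the group means. Red points lie above all blue ones except for Krt10 and Krt8, and in most genes the highest blue point is wild-type replicate 1.

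The basal pair came first in level on the type II side and on the type I side. Krt14 (ENSMUSG00000045545, chromosome 11, 100203162 to 100207548) encodes the basal type I chain. It had 178.3, 96.4 and 90.6 normalized counts in wild-type replicates 1 to 3, and 315.3, 287.1 and 445.5 in Txn1 KO libraries 1 to 3. The groups did not overlap, and replicate 1 stood above the other wild-type libraries. The mean went from 121.7 ± 49.1 to 349.3 ± 84.5 (SD, n = 3 each), a log2 difference of 1.56 ± 0.21 (SE, limma).

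Krt5 (ENSMUSG00000061527, chromosome 15, 101707070 to 101712898) encodes its type II partner. It had 112.1, 51.3 and 64.6 normalized counts in wild type and 187.8, 160.7 and 265.1 in the KO-labelled libraries. Again no libraries overlapped, and the highest library of each group was the same as for Krt14. The log2 difference was 1.46 ± 0.23 (SE), and the 95% interval ran from 0.97 to 1.96. Without the pair of libraries with hepatocyte transcripts the difference was 1.58 for Krt5 and 1.68 for Krt14.

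Krt17 encodes a type I chain of hair follicles and of injured epidermis, where it is induced with KRT6. It lies on chromosome 11 at 100256217 to 100261029 (ENSMUSG00000035557). Its values were 113.1, 57.5 and 65.4 normalized counts in wild type against 246.9, 170.3 and 269.2 in the KO-labelled libraries, from 74 to 111 and 178 to 213 reads. The lowest of the second group was 1.51 times the highest of the first. The log2 difference was 1.56 ± 0.22 (SE).

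Krt6a and Krt6b (ENSMUSG00000058354 and ENSMUSG00000023041), neighbours on chromosome 15 at 101689910 to 101694307 and 101676023 to 101680287, encode the type II chains of injured and appendage epithelium. Krt6a had 32.6, 20.2 and 19.3 normalized counts in wild type and 64.9, 71.8 and 86.1 in the other group. Krt6b had 26.5, 17.1 and 20.96 against 53.3, 42.1 and 63.3. Both were higher in 3 of 3 libraries labelled Txn1 KO than in any control. Their log2 differences were 1.62 ± 0.25 and 1.26 ± 0.27 (SE), and their 95% intervals overlapped. Summed, which removes the question of how reads were split between them, they went from 45.5 ± 11.8 to 127.2 ± 19.4 normalized counts, 2.79 times as high.

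Krt42 (ENSMUSG00000053654, chromosome 11, 100262882 to 100269871) is a type I gene of the same cluster as Krt17. It had 45.9, 20.2 and 14.3 normalized counts in wild type and 75.4, 59.3 and 95.6 in the KO-labelled libraries. Wild-type replicate 1 was more than 2 times the other controls, but the groups stayed apart. The log2 difference was 1.63 ± 0.34 (SE), and 1.92 without the libraries with hepatocyte transcripts.

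Krt76 (ENSMUSG00000075402, chromosome 15, 101884351 to 101892920) encodes a type II keratin known from suprabasal cells of the oral mucosa. Its wild-type values were 23.4, 8.55 and 13.4 normalized counts, which are 23, 11 and 16 reads, and the KO-labelled libraries had 34.8, 28.7 and 47.1. The groups did not overlap. The log2 difference was 1.31 ± 0.37 (SE). This call depended on single libraries: the difference was 0.98 without wild-type replicate 2, 1.28 without wild-type replicate 3 and 1.12 without Txn1 KO library 3, each of which ended the call (limma adjusted p = 0.0790, 0.0567 and 0.0605, in that order).

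The keratins of simple epithelium were the lowest 2 of the set. Krt18 (ENSMUSG00000023043, chromosome 15, 102028180 to 102032027, plus strand), the type I chain of liver and other simple epithelia, had 15.3, 2.33 and 1.68 normalized counts in wild type, which are 15, 3 and 2 reads, and 16.2, 18.2 and 17.5 in the other group. Wild-type replicates 2 and 3 were thus at or below the floor of 3 reads, and wild-type replicate 1, which also held Alb, was close to the KO-labelled libraries. The mean of Krt18 was 6.43 in wild type and 17.3 in the KO-labelled libraries. It thus passed the filter, a mean of 10 over all libraries, only through the group where it was high. Its log2 difference of 1.80 ± 0.62 (SE) was called only narrowly. Without wild-type replicate 1 it was 2.61 (limma adjusted p = 0.00455), and without Txn1 KO library 3 it was 1.79 and not called (limma adjusted p = 0.0770). The call was lost in 10 of the 13 alternatives in which its mean passed the filter, among them edgeR's quasi-likelihood test, DESeq2 and the authors' deposited table.

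Krt8 (ENSMUSG00000049382, chromosome 15, 101996698 to 102004482), the type II partner of Krt18, had 12.2, 4.66 and 12.6 normalized counts in wild type and 11.6, 12.4 and 26.9 in the KO-labelled libraries. The groups overlapped, and the gene was not called (log2 difference 0.74, 95% interval -0.30 to 1.78). That interval includes 0 and the differences of 7 of the 8 called keratins, all but that of Krt18. Without both libraries with hepatocyte transcripts the log2 difference of Krt8 was 0.57, and without Txn1 KO library 3 alone it was 0.37. Krt8-ps, which holds 57.4% of its 50-base runs in common with Krt8, had 15.3, 11.7 and 10.1 against 4.64, 11.5 and 18.8, and reads of the gene and the pseudogene may be mixed.

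Krt10 (ENSMUSG00000019761, chromosome 11, 99385254 to 99389364), the type I chain of suprabasal epidermis, went differently. It had 95.8, 111.1 and 98.9 normalized counts in wild type and 118.2, 93.8 and 130.5 in the other group. The groups overlapped, wild-type replicate 1 was its lowest control rather than its highest, and it was not called. The fitted log2 difference of 0.15 had a 95% interval from -0.18 to 0.48, which ends below the interval of each of Krt5, Krt6a, Krt6b, Krt14, Krt17, Krt42 and Krt76. The difference between genes was not tested. Without both libraries with hepatocyte transcripts the log2 difference of Krt10 was 0.0061. Krt80, a type II keratin outside the set, had 22.5 to 34.4 normalized counts in wild type and 29.6 to 57.4 in the KO-labelled libraries, with overlap and no call (log2 difference 0.60, 95% interval -0.03 to 1.22).

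**Figure D3:**
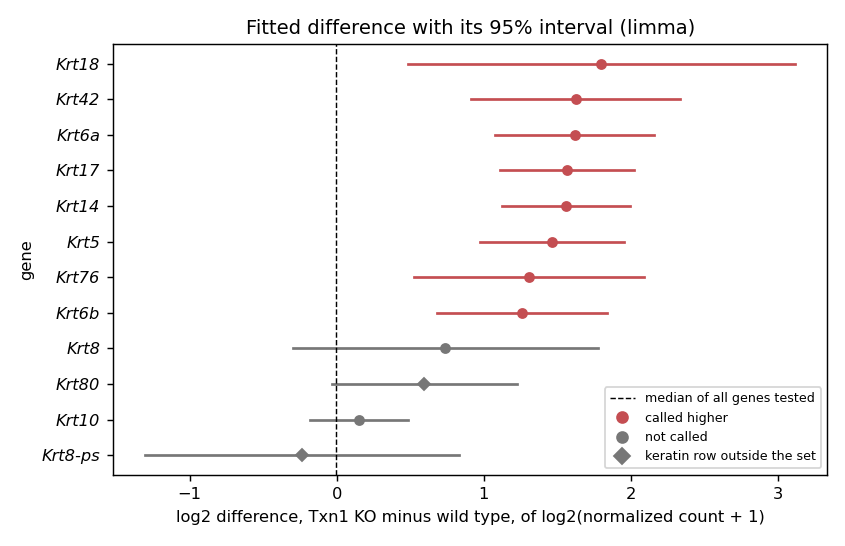
Difference on the log2(normalized count + 1) scale, Txn1 KO minus wild type, with 95% intervals from limma, for the 10 keratins and 2 further keratin rows (diamonds). The 8 called genes (red) lie between 1.26 and 1.80, the intervals of Krt8, Krt80, Krt10 and Krt8-ps include 0, and the dashed line is the median of all genes tested.

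Levels can be compared between genes only per length, here as normalized counts per kilobase of annotated exon. The full length was used, also for Krt6a, Krt6b and Krt8, which share many runs with other genes. How such reads were assigned is not given, so the places of these genes in the orders below are uncertain. In wild type Krt14 led with 69.3, followed by Krt17 with 50.7, Krt10 with 48.2 and Krt5 with 34.6 per kilobase. Krt42 followed with 15.2, Krt6a with 9.94, Krt6b with 9.63, Krt76 with 6.55, Krt8 with 5.02 and Krt18 with 4.48 per kilobase. Each gene overlapped its neighbour in this order when values were compared across the libraries of the group. Within single libraries, Krt14 lay above Krt17 in every library of both groups. In the KO-labelled libraries the order was Krt14 (198.7), Krt17 (147.5), Krt5 (93.1), Krt10 (54.0), Krt42 (43.5), Krt6a (30.7), Krt6b (23.7), Krt76 (15.9), Krt18 (12.04) and Krt8 (8.67). Here Krt5 and Krt10 were the neighbours that did not overlap across libraries (73.2 at the lowest against 61.8 at the highest). Within each single KO-labelled library the order from Krt14 down to Krt76 was the same. Vim, which encodes vimentin, had 14510 to 16957 per kilobase, 18.8 to 81.3 times the sum of all 10 keratins per kilobase in the same library. The 10 keratins together came to 479 to 643 reads in the wild-type libraries and 970 to 1075 in the KO-labelled ones.

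Ratios were taken within each library among Krt5, Krt6a, Krt6b, Krt14, Krt17, Krt42 and Krt76, which were all called higher. The ratio of Krt14 to Krt5 was 1.62 ± 0.24 in wild type and 1.71 ± 0.061 in the KO-labelled libraries (SD, n = 3 each). Krt17 stood at 0.651 ± 0.064 and 0.660 ± 0.11 of Krt14. The sum of Krt6a and Krt6b stood at 0.596 ± 0.065 and 0.567 ± 0.095 of Krt17. Krt42 was 0.208 ± 0.050 and 0.220 ± 0.017 of Krt14, and Krt76 was 0.195 ± 0.024 and 0.180 ± 0.0041 of Krt5. In all 5 ratios the libraries of the groups overlapped, while the levels of these 7 genes were 2.44 to 3.09 times as high. The genes were taken because they were called higher, by similar amounts, so the overlap restates their differences and is a description. Krt10, which was not called, stood at 0.928 ± 0.34 of Krt14 in wild type and 0.332 ± 0.041 in the KO-labelled libraries, without overlap. That ratio likewise restates the differences of the 2 genes. Per kilobase, type I exceeded type II by 2.54 to 3.47 times over the 6 libraries, with overlap between groups. The longest identical coding run of Krt5 and Krt14 was 16 bases, against 71 for Krt14 and Krt17.

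**Figure D4:**
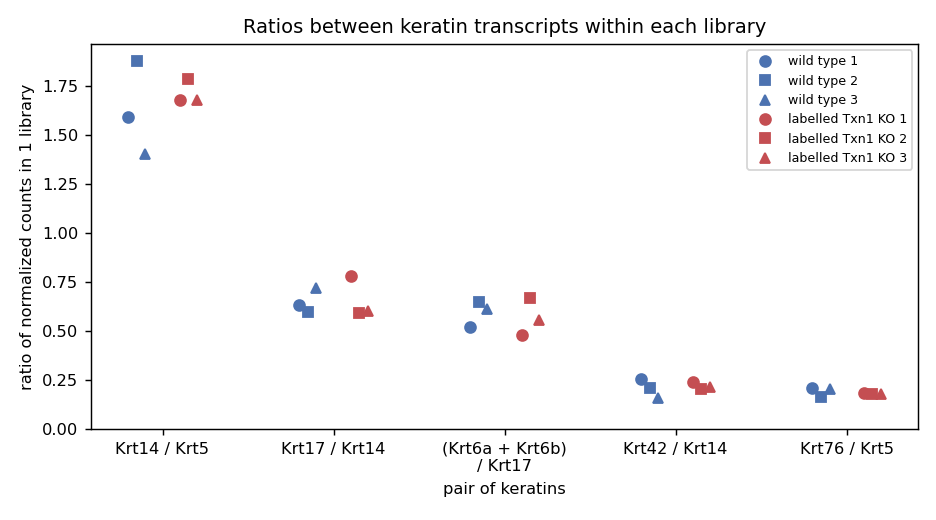
Ratios between normalized counts of keratins within each of 6 libraries, with wild type in blue and libraries labelled Txn1 KO in red, and marker shapes for the replicate number. Red and blue points overlap in each of the 5 ratios, for example 1.40 to 1.88 for Krt14 over Krt5.

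The spread inside the groups was shared as well. All 8 called keratins were highest among controls in wild-type replicate 1, and 7 of them were highest among the KO-labelled libraries in library 3 (Krt18 was the exception). These are the 2 libraries with hepatocyte transcripts, where Alb had 642.9 and 580.0 normalized counts against 0 to 0.838 in the other 4. Of 20 hepatocyte markers 12 were listed, summing to 3238 and 3146 in those libraries and 1538 to 1768 in the others. Most of the sum in the other 4 was Trf, with 1398 to 1521 there against 1479 and 1400. Apoa2 was level too (13.2 to 25.2 against 26.5 and 24.2), and Hp had 108 to 230 against 199.7 and 329.7. Alb, Fga, Fgb, Fgg, Gc and Ttr were at or near 0 in the other 4, and Cps1, Rbp4 and Ambp were lower there. The sums are therefore no measure of hepatocyte content. Of the 12, 1 was called (Hp, haptoglobin, higher by 0.88), where 21.5% of all genes tested were called either way. Markers held almost wholly by 1 library of each group, such as Alb (SE 2.16), could hardly be called. The count thus cannot show whether hepatocyte markers follow the groups. In the 4 libraries without Alb, the 10 keratins summed to 389.3 and 401.6 normalized counts in wild type and to 1124 and 944.4 in the KO-labelled libraries. Fitted on those 4 alone, 7 keratins were called higher, with a median log2 difference of 1.58 over the 9 that kept a mean of 10. Krt17 differed there by 1.73, Krt6a by 1.74, Krt6b by 1.28 and Krt76 by 1.47. What part hepatocyte transcripts have in the higher keratin values of wild-type replicate 1 and Txn1 KO library 3 was not tested.

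**Figure D5:**
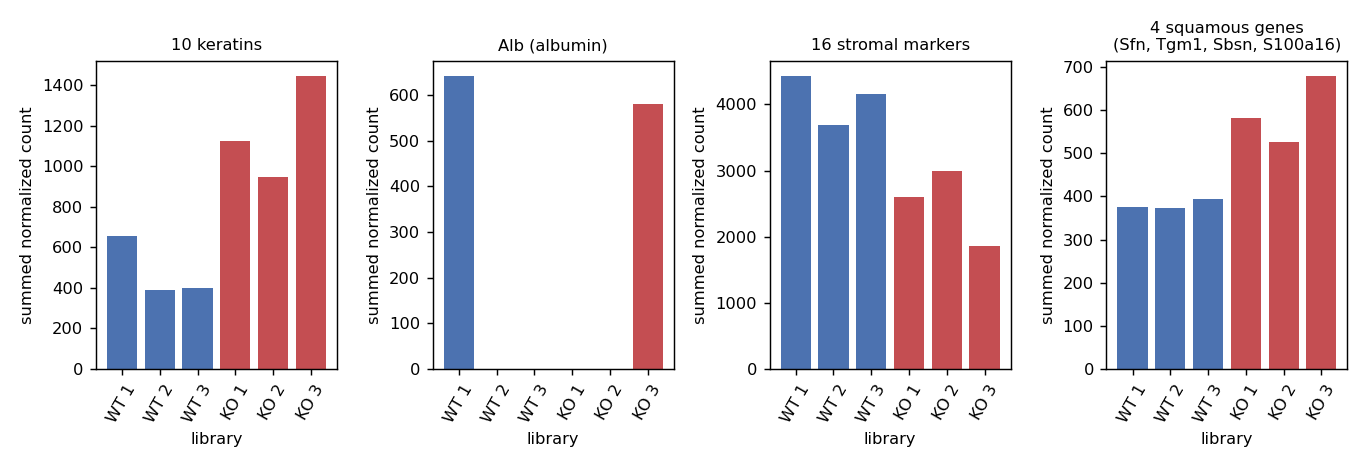
Summed normalized counts in each library (bars, blue wild type as WT, red labelled Txn1 KO as KO) of the 10 keratins, of Alb, of 16 stromal markers and of the 4 listed genes of squamous epithelium. The keratin sum and the squamous sum, most of which is Sfn, are higher in each red bar than in each blue one. Alb is seen in 1 library of each group, and the stromal sum is lower in each red bar.

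Across the 6 libraries the 28 pairs of called keratins had Pearson correlations of log2(normalized count + 1) from 0.83 to 0.99, with a median of 0.96. The points share libraries and the difference between groups, so these values are a description. By the same measure the 3 genes closest to Krt14 were Gm21399, Ccdc28a and Atp9a, and those closest to Krt5 were Psmb3, Hal and Rfc5. For Krt17 they were mt-Tc, Setd6 and Glipr1, for Krt6a Rab7b, Rxra and E2f8, and for Krt6b Nasp, Setd6 and Mgl2. Krt42 was closest to Rex1bd, S100a6 and Mt1, Krt76 to Tonsl, Plekha6 and Trim39, and Krt18 to Ndufv2, Snord104 and Rgs16. The nearest to Krt10 were Chuk, Zfp263 and Zcchc11, and to Krt8 Uspl1, Tnnt1 and Gm11960. All 30 correlations were between 0.965 and 0.999 over 6 libraries, and none of the 30 places was taken by another keratin. Such values were not confined to the genes named. Of 13977 genes with a mean of at least 10, 151 reached 0.95 with Krt5, 188 with Krt14 and 18 with Krt8.

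Keratin filaments end at desmosomes and hemidesmosomes, and some genes of these were called higher. For this list and those that follow, the share over all genes tested was 11.5% higher, 9.97% lower and 21.5% either way. Of 17 listed for them 9 were measured, of which 5 were called higher, 1 lower and 3 not. Jup, which encodes plakoglobin of the desmosomal plaque, had 218.1, 284.4 and 275.9 normalized counts in wild type and 398.8, 447.8 and 391.6 in the KO-labelled libraries (log2 difference 0.67 ± 0.10, limma adjusted p = 0.000132, higher in 3 of 3). Pkp2, the plaque protein plakophilin 2, went from 84.5 ± 6.95 to 149.3 ± 16.01 (0.81 ± 0.15, limma adjusted p = 0.000566). Cd151, a tetraspanin that accompanies hemidesmosome integrins, rose by 0.26, and Pkp4 and Lad1 also rose. Itga6, the integrin chain of hemidesmosomes, fell by 0.17 (limma adjusted p = 0.00638). The median of the 9 was 0.26. The desmosomal cadherins and Col17a1 were not analysed here.

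Plakins, which tie filaments to junctions, had 1 of 3 measured members called, where 21.5% of all genes tested were called either way. Dst, which encodes dystonin, rose from 522.2 ± 11.0 to 757.1 ± 47.5 normalized counts (0.53 ± 0.066, limma adjusted p = 1.31e-05). Plec and Macf1 differed by 0.05 and 0.04 and were not called. Of 5 measured intermediate filament genes other than keratins, Vim fell from 78679 ± 1513 to 70913 ± 1830 (-0.15 ± 0.033, limma adjusted p = 0.00319), and the 4 others were not called. Proteins that bind or fold keratins, a list of 15, had 1 called higher and 1 lower, with a median of 0.02. Ywhaq, a 14-3-3 protein, fell by 0.26, and the call of Ywhah (0.12) was lost in 6 alternatives.

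Markers of squamous epithelium were mostly outside the table. Of 27 listed, 4 were measured, and 23, among them Trp63, Ivl and Flg, were not analysed here. Sfn, which encodes the 14-3-3 sigma protein of keratinocytes, was called: 289.4, 282.9 and 287.6 normalized counts in wild type and 461.4, 419.1 and 570.6 in the KO-labelled libraries (0.74 ± 0.10, limma adjusted p = 3.21e-05). Its controls were level, without the excess of wild-type replicate 1 seen in the keratins. Tgm1 (0.72), S100a16 (1.05) and Sbsn (-0.20, the other direction) were not called. The number called was 2 without Txn1 KO library 3, and also 2 without both libraries with hepatocyte transcripts. The 4 summed to 372.2 to 394.9 in wild type and 525.3 to 679.6 in the other group, and most of each sum was Sfn.

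Of 20 genes of epithelial identity 3 were measured and 2 called higher, where 11.5% of all genes tested were. Spint1, a serine protease inhibitor of epithelial surfaces, rose by 0.57 ± 0.083 (limma adjusted p = 7.42e-05). St14, the protease matriptase that it inhibits, rose by 0.29, a call that ended when wild-type replicate 2 was left out (0.27, limma adjusted p = 0.0538) or both libraries with hepatocyte transcripts were (0.23, limma adjusted p = 0.0800). The 3 summed to 869.6 to 935.7 in wild type and 1164 to 1253 in the KO-labelled libraries. The 17 not analysed here include Epcam and Cdh1, the defining surface proteins of epithelium.

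Of 16 stromal markers, all measured, 11 were called lower, 0 higher and 5 not, and their median was -0.77. Over all genes tested 9.97% were called lower and 11.5% higher. The sum of the 16 was 3682 to 4435 normalized counts in wild type and 1865 to 2997 in the other group. Col1a2, Bgn and Dcn, genes of the fibroblast matrix, fell, with log2 differences of -1.36, -1.39 and -1.14. Of 4 measured skeletal muscle markers limma, edgeR and DESeq2 each called 0, and 1 had an unadjusted limma p under 0.05. Their log2 differences went both ways, with Tnni2 at -0.38, Acta1 at -0.22, Tnnt3 at 0.44 and Mylpf at 0.59 and a median of 0.11. Tnni2 was called without Txn1 KO library 3. The 8 mesothelial markers were not analysed here. Macrophage markers had 5 of 13 identifiers called higher and 3 lower, for example Mertk (0.64), Cd14 (-0.47) and Fcgr1 (-0.71), with a median of 0.05. The part of epithelial or stromal cells in the keratin values was not tested.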

How the data were processed

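The deposited table holds, per gene and library, a normalized signal, which is whole reads over a size factor of the library, and the authors' log2 fold change, p-value and adjusted p. Each value was a whole multiple of its library's step (100% of values, tolerance 0.01 reads), so whole reads were recovered. Tools named, per the submitters' processing notes, are STAR 2.5.2b, Trimmomatic 0.36, bcl2fastq 2.20 and DESeq2, with GRCm38 (mm10). The read counter, strand setting and annotation are named neither there nor in the labels. Control columns carry no genotype and were matched as the one group left.

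The test was limma 3.58.1 (R 4.3.3, trended prior) on log2(normalized count + 1), over genes with a mean of at least 10, two-sided, with Benjamini-Hochberg adjustment over all genes tested. The pseudocount matters for low genes: the log2 difference of Krt18 was 1.95 with 0.5, 1.80 with 1 and 1.16 with 5. In edgeR and DESeq2 it was 1.51 and 1.49, below the main value. Alternatives used edgeR 4.0.16 and DESeq2 1.42.0 on recovered reads, other pseudocounts and filters, and left-out libraries. limma called 3001 genes and edgeR 2969. Positions, exon lengths and sequences are from GENCODE M21. A matching type II coding stretch is not reported here. Scripts were tested on simulated data. Keratins and gene lists were chosen with earlier results of these data known. Besides the keratins, up to 3 called genes per list are named (smallest p), or the 2 highest where none was called, and the 3 closest genes by correlation. Genes named beyond that, to spell out a count, as absent or as examples of listed markers, were chosen after their values were seen.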

Additional observations from a re-analysis of the deposited data

How the results depend on the processing

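Under 15 alternatives the number of keratins called higher was 6 to 8, and 0 were called lower. It was 6 to 8 without 1 library in turn, where their median log2 difference was 1.30 to 1.81, and the count over all genes was 2087 to 2816. With the replicate number as a block it was 7 (Krt18 was lost), with 2675 genes called in all. Whether same-numbered libraries were paired is not stated. Their deviations from the group mean correlated at -0.27, 0.14 and -0.33, while those of wild-type replicate 1 and Txn1 KO library 3 correlated at 0.43. Deviations cancel within a group, so these values cannot show whether libraries were paired. Of 118 fits of a called keratin, 105 kept the call, and the 13 losses were Krt18 (10) and Krt76 (3). No keratin difference changed sign. With a pseudocount of 5 the median difference was 1.29. The authors' deposited table calls 7 keratins. Acta1 ranged from -0.53 to 0.018 without 1 library in turn, and was positive without wild-type replicate 2, and Tnni2 was called without Txn1 KO library 3 (-0.45, limma adjusted p = 0.0304); the cause was not tested. At 2 to 15 reads in wild type, depth limits Krt18 and Krt8.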
